A study of Homo sapiens with 6 samples.

Results

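The HMGN, HMGA and HMGB genes encode the small high mobility group proteins of chromatin, and 8 of them, HMGN1, HMGN2, HMGN3, HMGN4, HMGA1, HMGA2, HMGB1 and HMGB2, were followed by their symbols among the 23355 genes of the count table. Transcripts of HFL-1 cells, a fibroblast line derived from human fetal lung, were sequenced after transfection with a control siRNA that targets no gene (siNTC) or with 1 of 2 siRNAs against TAZ (siTAZ #1 and siTAZ #2). RNA was collected after 48 h, with 2 libraries per siRNA and 6 in all. TAZ, encoded by WWTR1, is a transcriptional coactivator of the Hippo pathway that acts mainly through TEAD factors, and the comparisons ask which genes respond to its loss in lung fibroblasts. The knockdown was transient and used a single cell line, and each siRNA was compared with the same siNTC libraries.

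High mobility group proteins bind DNA or nucleosomes with little regard to sequence and alter how accessible and how bent chromatin is. HMGN proteins bind the nucleosome core and counteract compaction by linker histone H1. HMGA proteins bind the minor groove of AT-rich DNA through AT-hooks and are abundant in embryonic and proliferating cells, while HMGB proteins bend DNA through HMG boxes.

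HMGN2 and HMGN4 are near-copies of each other, and both were lower with each TAZ siRNA, so their coding sequences are shown for comparison. On GRCh37, the HMGN2 coding sequence lies on chromosome 1, between 26799104 and 26801636 on the plus strand, in 6 exons. That of HMGN4 lies on chromosome 6, between 26545435 and 26545704 on the plus strand, in 1 exon, as in a gene copied from a spliced RNA. Each is 270 bases long without the stop codon, and capitals mark the 37 bases at which they differ.
HMGN2: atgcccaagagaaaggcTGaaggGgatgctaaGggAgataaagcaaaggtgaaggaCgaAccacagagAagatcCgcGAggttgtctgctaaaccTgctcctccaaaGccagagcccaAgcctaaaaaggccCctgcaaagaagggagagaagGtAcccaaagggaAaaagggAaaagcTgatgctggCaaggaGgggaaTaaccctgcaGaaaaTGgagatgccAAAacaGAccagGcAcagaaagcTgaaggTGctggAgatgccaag
HMGN4: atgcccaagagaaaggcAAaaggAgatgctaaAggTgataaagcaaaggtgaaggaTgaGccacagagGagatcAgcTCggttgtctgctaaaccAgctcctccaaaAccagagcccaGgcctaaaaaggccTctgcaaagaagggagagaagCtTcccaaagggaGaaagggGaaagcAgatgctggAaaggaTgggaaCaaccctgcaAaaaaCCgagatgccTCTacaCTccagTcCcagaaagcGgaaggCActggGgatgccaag

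The coding sequences of HMGN2 and HMGN4 were identical at 86.3% of their bases, and the longest run that the transcripts shared was 20 bases. HMGB1 and HMGB2 were the next closest pair, with 74.9% identity and a longest shared run of 29 bases. HMGA1 and HMGA2, which share their AT-hooks, were identical at 168 of 336 aligned columns. Longer runs were shared with processed copies elsewhere in the genome. GRCh37 held 12 further copies of the HMGN2 coding sequence at 95% identity or more over at least 80% of its length, 5 of HMGN1, 4 of HMGB1 and 3 of HMGA1, and none of HMGN3, HMGN4, HMGA2 or HMGB2. Reads of HMGN1, HMGN2, HMGA1 and HMGB1 may have been split with these copies, so their levels are less certain than those of the other 4 genes. HMGN2P46, the 1 HMGN2 copy with an entry of its own, had between 75 and 477 counts per library, against 2086 to 9096 for HMGN2.

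The genomic windows before the start sites of the members differ in their motifs. RefSeq promoter windows of GRCh38.p14 were matched for 6 of the 8 members, with 9 start sites, and their 250 upstream bases were placed on GRCh37 by exact match. HMGA2 and HMGB2 had no entry. The windows of HMGN2 and HMGN4 are shown because the genes fell together, and 1 of HMGB1 because it holds the most CCAAT boxes among the 9. Capitals mark CCAAT or its reverse complement ATTGG. The HMGN2 window is chr1:26798681-26798930 on the plus strand, the HMGN4 window is chr6:26538344-26538593 on the plus strand, and the HMGB1 window is chr13:31040074-31040323 on the minus strand.
HMGN2 promoter: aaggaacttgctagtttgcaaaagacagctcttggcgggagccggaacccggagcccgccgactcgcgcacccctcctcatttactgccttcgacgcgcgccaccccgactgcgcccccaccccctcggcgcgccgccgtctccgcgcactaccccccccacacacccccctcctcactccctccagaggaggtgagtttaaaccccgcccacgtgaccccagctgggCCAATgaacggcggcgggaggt
HMGN4 promoter: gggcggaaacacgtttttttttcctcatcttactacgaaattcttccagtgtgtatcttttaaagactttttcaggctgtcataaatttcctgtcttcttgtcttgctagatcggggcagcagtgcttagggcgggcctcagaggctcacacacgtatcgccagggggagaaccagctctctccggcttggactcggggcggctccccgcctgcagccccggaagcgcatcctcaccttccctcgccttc
HMGB1 promoter: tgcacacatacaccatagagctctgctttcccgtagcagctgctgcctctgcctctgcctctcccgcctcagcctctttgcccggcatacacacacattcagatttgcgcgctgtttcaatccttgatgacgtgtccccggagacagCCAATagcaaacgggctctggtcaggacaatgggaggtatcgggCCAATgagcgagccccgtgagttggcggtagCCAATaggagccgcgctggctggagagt

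The HMGN2 window held 1 CCAAT box, the HMGN4 window none and the HMGB1 window 3. Of all 35116 RefSeq windows of the same length, 32% held a CCAAT box on either strand. GGAATG, the core of the TEAD motif, was found on either strand in 0 of the 9 windows of the members and in 11.9% of all windows. The letters TTTCGCGC or TTTGGCGC of the E2F motif were also found in 0 of the 9 and in 0.968% of all windows. These matches describe the letters in 250 bases and nothing beyond them.

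WWTR1 was measured at 131 and 132 CPM (counts scaled to a common library size by TMM) with siNTC, at 26.4 to 28.4 CPM with siTAZ #1 and at 43.1 to 46.1 CPM with siTAZ #2, so the siRNA target fell in all 4 siTAZ libraries. Against siNTC this was a log2 fold change of -2.26 (FDR = 0.00062) with siTAZ #1 and -1.56 (FDR = 0.00068) with siTAZ #2. YAP1, its paralog, rose with both, with log2 fold changes of 0.64 (FDR = 0.029) and 0.54 (FDR = 0.039). Libraries held 15648055 to 32078188 counts. The 9 fibroblast marker genes summed to 34878 to 34966 CPM with siNTC, 23174 to 24049 CPM with siTAZ #1 and 27180 to 28939 CPM with siTAZ #2, and 0 of the 9 were without counts in any group, while markers of epithelial cells, endothelial cells and leukocytes summed to at most 3.50 CPM in any library. In siTAZ #1 replicate 2, the deepest library, genes from RANGAP1 on chromosome 22 through X and Y (RANGAP1-to-Y genes) held 0.243% of the counts, against 3.30% to 3.48% in the other 5 libraries. None of the 8 members lies there, but those genes widen the spread shared by the fit, and the common dispersion was 0.0807 with those genes and 0.0190 without them. The siTAZ #1 libraries also differed more from each other in the members themselves. A chi-square of the replicate counts, averaged over the 8 members, was 220 with siTAZ #1, 4.79 with siNTC and 25.8 with siTAZ #2. This measure grows with depth, and the siTAZ #1 pair held the deepest library.

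**Figure D1:**
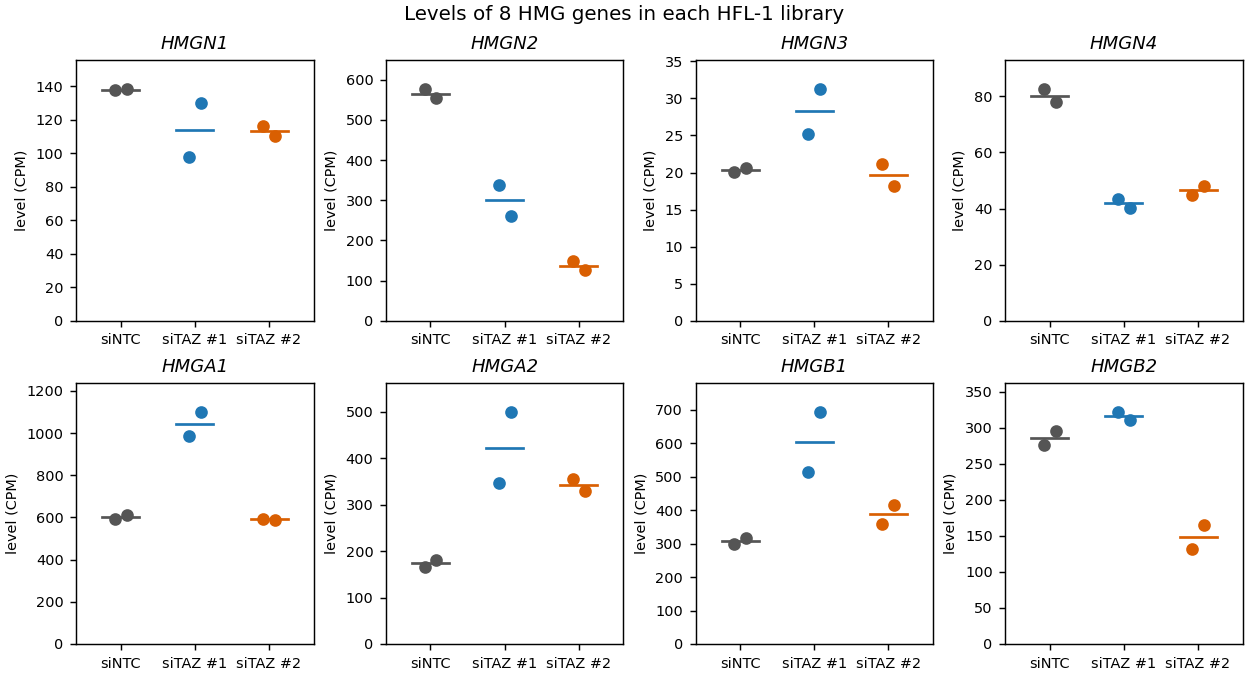
Level of each of the 8 genes in TMM-normalized CPM (vertical axis, starting at 0, with a scale of its own for each gene) in the 2 libraries of siNTC, siTAZ #1 and siTAZ #2 (horizontal axis). Points are libraries and lines are means; HMGN2 and HMGN4 lie below siNTC and HMGA2 lies above it in all 4 siTAZ libraries, while HMGA1 is higher with siTAZ #1 and HMGB2 is lower with siTAZ #2.

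With siTAZ #1, HMGN2 and HMGN4 fell, HMGA1, HMGA2 and HMGB1 rose, and HMGN1, HMGN3 and HMGB2 did not pass the test. With siTAZ #2, HMGN2, HMGN4 and HMGB2 fell, HMGA2 rose, and the other 4 did not pass. Thus 5 of 8 members passed the edgeR quasi-likelihood test at an FDR of 0.05 with siTAZ #1, 3 higher and 2 lower, where 20.6% of the 14053 genes tested did (10.8% higher and 9.78% lower). With siTAZ #2, 4 of 8 passed, 1 higher and 3 lower, against 28.5% of genes (14.1% higher and 14.4% lower). The median log2 fold change over the 8 was 0.31 and -0.17, respectively, against 0.02 and 0.01 over all genes. All 8 passed the filter on low counts. The libraries of siTAZ #1 and siNTC did not overlap for 8 of 8 members, which held for 64.3% of all genes, and those of siTAZ #2 and siNTC did not for 6 of 8, against 71.4% of all genes. Without siNTC replicate 1, the count of members called fell to 0 with siTAZ #1 and to 2 with siTAZ #2, and 1 was called with siTAZ #1 when siNTC replicate 2 was left out. When the RANGAP1-to-Y genes were also left out, these fits gave 5 with siTAZ #1 and 4 with siTAZ #2 without either siNTC library.

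**Figure D2:**
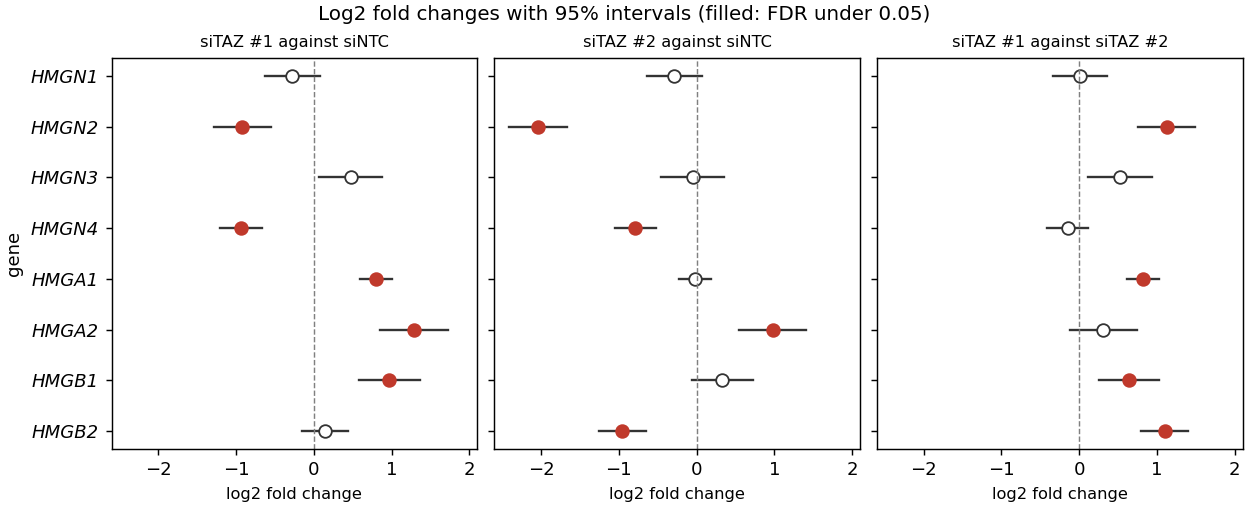
Log2 fold change (horizontal axis) of each of the 8 genes (vertical axis) in the comparisons of siTAZ #1 with siNTC, siTAZ #2 with siNTC and siTAZ #1 with siTAZ #2, from edgeR. Lines are 95% intervals and filled points have an FDR under 0.05; HMGN2 has the lowest value, -2.04 with siTAZ #2, and HMGA2 the highest, 1.29 with siTAZ #1.

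HMGN2, an abundant nucleosome-binding protein, had the largest decrease of the 8 genes. It was at 577 and 554 CPM with siNTC, 338 and 261 CPM with siTAZ #1, and 149 and 126 CPM with siTAZ #2. The 3 groups did not overlap, and siTAZ #2 gave the lowest level. The log2 fold change was -0.92 ± 0.15 (SE, FDR = 0.011) with siTAZ #1, leaving 53.0% of the siNTC level, and -2.04 ± 0.15 (FDR = 0.00092) with siTAZ #2, leaving 24.3%. The difference between the siRNAs was itself called, at 1.12 ± 0.15 on the log2 scale (FDR = 0.0042, higher with siTAZ #1). The bulk counts cannot tell fewer cells that express a gene from less RNA per cell, which holds for every gene here. The decrease with siTAZ #2 and the difference between the siRNAs passed the threshold in each of the alternatives run, whereas the decrease with siTAZ #1 was not called without siNTC replicate 1 or without siNTC replicate 2, at an FDR of up to 0.090.

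HMGN4, the intronless-coding relative of HMGN2, fell by a similar amount with both siRNAs. Its libraries were at 82.6 and 77.9 CPM with siNTC, 43.5 and 40.3 CPM with siTAZ #1, and 45.0 and 48.0 CPM with siTAZ #2. Both siTAZ groups lay well below siNTC and close to each other. Its log2 fold change was -0.94 ± 0.11 (FDR = 0.0042) with siTAZ #1 and -0.79 ± 0.11 (FDR = 0.0048) with siTAZ #2. The siRNAs were not called different, and the log2 difference was -0.15 with a 95% interval from -0.42 to 0.11. Without siNTC replicate 1, neither decrease was called, with FDRs of 0.054 and 0.051, and the exact test on 4 libraries gave 0.051 for siTAZ #1.

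HMGN1, a nucleosome-binding protein encoded on chromosome 21, lay below siNTC in all 4 siTAZ libraries, as 17.5% of all genes did, but was not called with either siRNA. It was at 137 and 138 CPM with siNTC, 97.6 and 130 CPM with siTAZ #1, and 117 and 110 CPM with siTAZ #2. The siTAZ #1 libraries were farther apart than those of the other groups. Log2 fold changes were -0.27 with siTAZ #1 (95% interval -0.62 to 0.07, FDR = 0.23) and -0.28 with siTAZ #2 (-0.63 to 0.07, FDR = 0.19). With siTAZ #1 it passed the threshold without siTAZ #1 replicate 2, at an FDR of 0.0049 and a log2 fold change of -0.50, and was at -0.08 (FDR = 0.62) without siTAZ #1 replicate 1. With siTAZ #2 it passed in the exact test, in a fit of 4 libraries and without either siTAZ #1 library, at FDRs down to 0.014.

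HMGN3, a member of the family that also binds thyroid hormone receptor, had the lowest counts of the 8. Its levels were 20.0 and 20.6 CPM with siNTC, 25.2 and 31.3 CPM with siTAZ #1, and 21.1 and 18.1 CPM with siTAZ #2. Both siTAZ #1 libraries were above all others, and siTAZ #2 overlapped siNTC. Its log2 fold change was 0.47 ± 0.17 (FDR = 0.098) with siTAZ #1 and -0.05 ± 0.17 (FDR = 0.85) with siTAZ #2. The value with siTAZ #1 was 0.62 and called (FDR = 0.018) without siTAZ #1 replicate 1, and 0.31 (FDR = 0.32) without siTAZ #1 replicate 2. The difference between the siRNAs, 0.53 ± 0.17 (FDR = 0.063), missed the threshold in the fit of all genes and passed it when the RANGAP1-to-Y genes were left out.

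HMGA2, an AT-hook protein of embryonic mesenchyme whose mRNA is a classic target of the let-7 microRNAs, rose with both siRNAs. It was at 165 and 182 CPM with siNTC, 347 and 499 CPM with siTAZ #1, and 355 and 329 CPM with siTAZ #2. All 4 siTAZ libraries were above both siNTC libraries, a pattern that 18.6% of all genes had. On the log2 scale, the change was 1.29 ± 0.18 (FDR = 0.0068) with siTAZ #1, or 2.44-fold, and 0.98 ± 0.18 (FDR = 0.012) with siTAZ #2, or 1.97-fold. The siRNAs overlapped and were not called different, with a log2 difference of 0.31 (95% interval -0.12 to 0.74), but this difference was called without siTAZ #1 replicate 1, at 0.55 (FDR = 0.00031), and was 0.02 (FDR = 0.90) without siTAZ #1 replicate 2, so its size rests on which of these libraries is kept. With siTAZ #2 the gene was no longer called on leaving out siNTC replicate 1, siNTC replicate 2, siTAZ #2 replicate 1 or siTAZ #2 replicate 2, with an FDR of at most 0.095, nor with siTAZ #1 on leaving out either siNTC library, at up to 0.077. RPSAP52, on the opposite strand across the start of HMGA2, had 123 to 255 counts per library, and the strand setting of the counting is not given in the sources used here.

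HMGA1, the AT-hook protein of proliferating cells, rose with siTAZ #1 and was not called with siTAZ #2. Its libraries held 591 and 610 CPM with siNTC, 987 and 1100 CPM with siTAZ #1, and 592 and 590 CPM with siTAZ #2. The siTAZ #2 libraries overlapped siNTC, and both siTAZ #1 libraries were far above. Against siNTC, the log2 fold change was 0.80 ± 0.08 (FDR = 0.0033) with siTAZ #1 and -0.02 (95% interval -0.23 to 0.18, FDR = 0.87) with siTAZ #2, whose sign turned to 0.02 when libraries were scaled by their totals alone. Between the siRNAs the log2 difference was 0.82 ± 0.08 (FDR = 0.0021). The increase with siTAZ #1 missed the threshold in the exact test and on leaving out siNTC replicate 1 or siNTC replicate 2, at an FDR of up to 0.076, and the difference between the siRNAs was lost in the exact test, at an FDR of 0.058.

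HMGB1, an architectural protein that also acts as a danger signal outside the cell, was highest with siTAZ #1. It was at 300 and 316 CPM with siNTC, 513 and 693 CPM with siTAZ #1, and 360 and 416 CPM with siTAZ #2. The 3 groups were ordered without overlap, siNTC lowest. The log2 fold change was 0.97 ± 0.16 (FDR = 0.011) with siTAZ #1 and 0.33 (95% interval -0.05 to 0.72, FDR = 0.17) with siTAZ #2. Between the siRNAs it was 0.64 ± 0.16 (FDR = 0.030), a call that was lost in the exact test, in a fit of the 4 libraries alone, and without siNTC replicate 1, siNTC replicate 2, siTAZ #2 replicate 1 or siTAZ #2 replicate 2, at an FDR of up to 0.25. The increase with siTAZ #1 missed the threshold on leaving out either siNTC library, at an FDR of up to 0.10. With siTAZ #2 it passed the threshold in the exact test, in the fit of 4 libraries and without siTAZ #1 replicate 1 or siTAZ #1 replicate 2, at an FDR down to 0.0038, and was at 0.20 (FDR = 0.53) without siTAZ #2 replicate 2.

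HMGB2, the paralog of HMGB1 that is expressed mostly in dividing cells, fell with siTAZ #2 and not with siTAZ #1. Its levels were 277 and 296 CPM with siNTC, 322 and 311 CPM with siTAZ #1, and 131 and 165 CPM with siTAZ #2. The siTAZ #1 libraries lay just above siNTC and the siTAZ #2 libraries far below. With siTAZ #2, the log2 fold change was -0.95 ± 0.12 (FDR = 0.0039), leaving 51.7% of the siNTC level, and it was 0.14 (95% interval -0.15 to 0.44, FDR = 0.44) with siTAZ #1. The siRNAs differed by 1.10 ± 0.12 on the log2 scale (FDR = 0.0026). The decrease with siTAZ #2 and the difference between the siRNAs passed the threshold in each of the alternatives run.

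In the direct test of siTAZ #1 against siTAZ #2, HMGN2, HMGA1, HMGB1 and HMGB2 differed, and all 4 were higher with siTAZ #1. Among all genes 28.6% were called in this comparison, 15.2% higher and 13.4% lower with siTAZ #1. The libraries of the siRNAs did not overlap for 6 of the 8 members, against 65.6% of all genes. The median log2 difference over the 8 was 0.58, and -0.01 over all genes. The direction of HMGN1, at 0.01, depended on the scaling, with -0.03 by upper-quartile factors, and no direction is given for it.

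Divided by the length of an annotated transcript, HMGA1 and HMGN2 were the most abundant of the 8 with siNTC, at 313 and 291 CPM per kb. HMGB2 followed at 199, HMGN1 at 108, HMGB1 at 56.5, HMGA2 at 42.2, HMGN4 at 41.3 and HMGN3 at 21.2 CPM per kb, and only HMGA2 and HMGN4 overlapped between neighbours in this order. With siTAZ #1 the order was HMGA1 at 543, HMGB2 at 220, HMGN2 at 154, HMGB1 at 111, HMGA2 at 103, HMGN1 at 89.6, HMGN3 at 29.5 and HMGN4 at 21.6 CPM per kb, and HMGB1, HMGA2 and HMGN1 overlapped one another. With siTAZ #2 it was HMGA1 at 308, HMGB2 at 103, HMGN1 at 89.1, HMGA2 at 83.0, HMGB1 at 71.1, HMGN2 at 70.9, HMGN4 at 23.9 and HMGN3 at 20.5 CPM per kb. There HMGB2 overlapped HMGN1, and HMGB1 overlapped HMGN2. HMGN2 thus went from rank 2 of 8 with siNTC to rank 6 with siTAZ #2 on this scale. The order depends on the transcript length used. In CPM without this division, HMGB1, at 308 with siNTC, was above HMGB2 at 286 and HMGN1 at 138.

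HMGN genes made up less and HMGA genes more of the 8 transcripts in each siTAZ library than in the siNTC libraries. The 4 HMGN genes held 42.2% to 44.1% of the summed CPM per kb with siNTC, 21.9% to 24.7% with siTAZ #1 and 25.2% to 27.9% with siTAZ #2. The 2 HMGA genes held 32.7% to 33.5% with siNTC, 49.2% to 52.3% with siTAZ #1 and 50.1% to 51.5% with siTAZ #2, so neither siTAZ group overlapped siNTC for these subfamilies. The 2 HMGB genes held 23.2% to 24.4%, 25.8% to 26.1% and 20.5% to 24.6%, respectively. The summed level itself was 1064 and 1081 CPM per kb with siNTC, 1216 and 1327 with siTAZ #1, and 765 and 773 with siTAZ #2. With siTAZ #2 the HMGA sum was 395 and 387 CPM per kb, against 348 and 362 with siNTC, and HMGA1 was at 308 against 313. HMGN2 was at 70.9 against 291 and HMGB2 at 103 against 199, so the HMGA share there also rose because the total was smaller. HMGN1 and HMGN3 were not called with either siRNA. The ratio of HMGA2 to HMGN2 per kb was 0.135 and 0.155 with siNTC, 0.483 and 0.903 with siTAZ #1, and 1.12 and 1.23 with siTAZ #2. These shares are given as descriptions with no test.

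**Figure D3:**
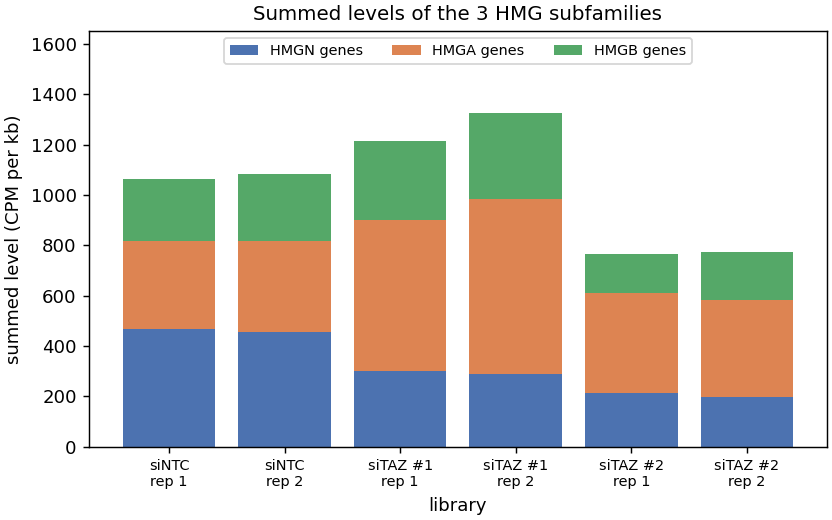
Summed level (CPM per kb of transcript, vertical axis, starting at 0) of the 4 HMGN, 2 HMGA and 2 HMGB genes, stacked for each of the 6 libraries (horizontal axis). The HMGN part is the largest with siNTC, at 456 and 469 CPM per kb, and the HMGA part is the largest in each siTAZ library, at 387 to 694 CPM per kb.

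HMGB2 belongs to a widely used list of G2M phase genes, so cell cycle genes were counted beside it. Over all genes, 10.8% were called higher and 9.78% lower with siTAZ #1, and 14.1% higher and 14.4% lower with siTAZ #2, which are the shares against which this and the following lists are read. Of 43 S phase genes, 5 were higher and 2 lower with siTAZ #1, and 0 were higher and 23 lower with siTAZ #2, with medians of 0.25 and -0.64 on the log2 scale. Of 53 G2M phase genes other than HMGB2, 8 were higher and 3 lower with siTAZ #1, and 1 was higher and 37 lower with siTAZ #2, with medians of 0.14 and -0.87. Summed over the list, the S phase genes were at 111% and 115% of the siNTC mean with siTAZ #1 and at 70.5% and 67.3% with siTAZ #2. The G2M phase genes were at 103% and 110% with siTAZ #1 and at 60.4% and 56.4% with siTAZ #2. HMGB2 itself was at 113% and 109%, and at 45.9% and 57.5%. HMGN2, at 59.9% and 46.1% with siTAZ #1, was below siNTC where these sums were above it, and HMGA2 was at 204% and 189% with siTAZ #2 where the sums were below it. With the other siRNA each lay on the same side as the sums. HMGN2 was at 26.4% and 22.3% with siTAZ #2, and HMGA2 at 200% and 288% with siTAZ #1. The RANGAP1-to-Y genes were not taken out of these lists, and RANGAP1 itself is among the G2M phase genes. The siTAZ #1 values of the lists thus include genes nearly without counts in siTAZ #1 replicate 2. The part of the cell cycle in the HMG results was not tested.

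**Figure D4:**
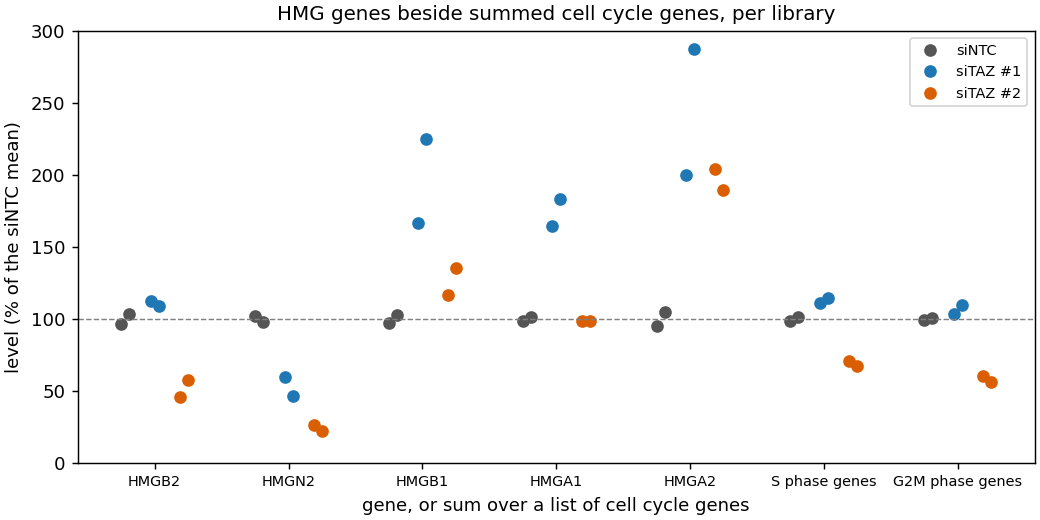
Level as a percentage of the siNTC mean (vertical axis, from 0, dashed line at 100) in the 6 libraries for 5 HMG genes and for the summed CPM of 43 S phase and 53 G2M phase genes other than HMGB2 (horizontal axis). Points are libraries, coloured by siRNA; with siTAZ #2, HMGB2, HMGN2 and both sums are below 100%, HMGA1 is at 98.6% and 98.3%, and HMGB1 and HMGA2 are above 100%.

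MKI67, TOP2A, CCNB1 and PCNA, all genes of dividing cells, were each higher with siTAZ #1 than with siTAZ #2, by 1.43, 1.18, 1.21 and 0.73 on the log2 scale (FDR = 0.00090, 0.0010, 0.00088 and 0.0028). MKI67 and TOP2A were already counted among the G2M phase genes above, and PCNA among the S phase genes. MKI67, the gene of the Ki-67 antigen, had log2 fold changes of 0.55 (FDR = 0.016) with siTAZ #1 and -0.89 (FDR = 0.0027) with siTAZ #2. TOP2A, a topoisomerase of dividing cells, fell with both, at -0.47 (FDR = 0.019) and -1.65 (FDR = 0.00063). CCNB1, a mitotic cyclin, was at -0.04 (FDR = 0.78) and fell with siTAZ #2 at -1.25 (FDR = 0.00074). PCNA, the sliding clamp of DNA replication, rose with siTAZ #1 at 0.49 (FDR = 0.013) and had -0.24 (FDR = 0.084) with siTAZ #2.

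HMGB3 and HMGN5, further HMG genes, lie on X among the genes with nearly missing counts in siTAZ #1 replicate 2, and their values were taken from a fit without that library. HMGB3, the third HMG-box protein of this type, was at 40.4 and 45.0 CPM with siNTC, 87.4 CPM in siTAZ #1 replicate 1, and 67.9 and 55.7 CPM with siTAZ #2. Against siNTC, the log2 fold change of HMGB3 in that fit was 1.03 ± 0.15 with siTAZ #1 and 0.53 ± 0.13 with siTAZ #2. The lone siTAZ #1 library is assumed there to vary like the others. HMGN5, a nucleosome-binding relative with a long acidic tail, was low, at 3.87 and 3.34 CPM with siNTC and 6.45 and 5.98 CPM with siTAZ #2. For HMGN5, the log2 fold change without that library was 0.78 ± 0.32 with siTAZ #2 and -0.13 ± 0.41 with siTAZ #1. In the fit of all 6 libraries HMGN5 was not called with siTAZ #2 (FDR = 0.58) or siTAZ #1 (FDR = 0.47). HMGB3, at 14.1 CPM in siTAZ #1 replicate 2, was not called there with siTAZ #1 (FDR = 0.84) or siTAZ #2 (FDR = 0.63).

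Other proteins with an HMG box were examined beside the members. Of 17 chromatin proteins of this kind that were tested, 2 were higher and 3 lower with siTAZ #1, and 3 were higher and 5 lower with siTAZ #2. PBRM1, the polybromo subunit of PBAF, fell with siTAZ #1 and siTAZ #2, with log2 fold changes of -1.36 (FDR = 0.0013) and -0.53 (FDR = 0.014). TOX2 rose with both, at 0.72 (FDR = 0.019) and 0.64 (FDR = 0.021). WHSC1, the NSD2 histone methyltransferase, fell with siTAZ #2 at -1.05 (FDR = 0.00092), as did TOX at -0.84 (FDR = 0.014), whereas the repressor CIC rose at 0.80 (FDR = 0.0040).

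Among 12 tested transcription factors with an HMG box, 4 were higher and 2 lower with siTAZ #1, and 3 were higher and 1 lower with siTAZ #2. SOX9, known from cartilage, rose with siTAZ #1 at 1.51 (FDR = 0.0062), as did the Wnt effector LEF1 at 0.99 (FDR = 0.030), while its relative TCF7L1 fell at -1.06 (FDR = 0.0041). SOX6 rose with siTAZ #2 at 1.23 (FDR = 0.0075) and SOX4 at 0.82 (FDR = 0.0021), and SOX13 fell at -1.91 (FDR = 0.033), from 3.30 and 6.63 CPM to 1.27 and 1.36 CPM. SOX4 also rose with siTAZ #1, at 0.35 (FDR = 0.037). LEF1 differed between the siRNAs by 1.73 (FDR = 0.0041) and SOX9 by 1.31 (FDR = 0.0064) on the log2 scale.

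Linker histones, which compete with HMGN proteins for nucleosomes, and heterochromatin proteins were counted together. Of 11 tested, 2 were higher and 2 lower with siTAZ #1, and 2 were higher and 7 lower with siTAZ #2. The linker histone gene HIST1H1C, at 17.6 CPM with siNTC, fell with both siRNAs, at -1.53 (FDR = 0.0064) and -1.20 (FDR = 0.0094). The linker histone genes H1FX and H1F0, at 51.9 and 95.3 CPM with siNTC, did not fall with both. H1FX was at 0.44 (FDR = 0.075) with siTAZ #1 and rose with siTAZ #2 at 0.65 (FDR = 0.019). H1F0 was at 0.35 (FDR = 0.17) with siTAZ #1 and fell with siTAZ #2 at -0.62 (FDR = 0.032). CBX5, the gene of heterochromatin protein HP1α, fell at -1.22 (FDR = 0.00090) and -0.71 (FDR = 0.0025). LBR, the lamin B receptor, rose from between 32.8 and 41.0 CPM with siNTC to between 124 and 136 CPM with siTAZ #1 (log2 fold change 1.82, FDR = 0.0012) and between 106 and 109 CPM with siTAZ #2 (1.54, FDR = 0.0012). LMNB1, a nuclear lamin, fell with siTAZ #2 at -0.76 (FDR = 0.0098). CBX5 and LBR are also among the G2M phase genes.

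Of 18 histone chaperones and acidic nuclear proteins, 1 was higher and 3 lower with siTAZ #1, where 20.6% of all genes were called, and 1 was higher and 6 lower with siTAZ #2, where 28.5% were. With siTAZ #2 the nucleolar proteins NCL and NPM1 fell, at -1.45 (FDR = 0.00092) and -1.27 (FDR = 0.0074), and so did the histone chaperone ANP32B at -1.16 (FDR = 0.0041). With siTAZ #1 the 3 lower genes were NPM3 at -1.19 (FDR = 0.0075), ASF1A, a chaperone of H3 and H4, at -1.05 (FDR = 0.021), and ANP32A at -0.66 (FDR = 0.0089). ANP32A also fell with siTAZ #2, at -0.44 (FDR = 0.022). The 1 higher gene was NAP1L4 with both siRNAs, at 0.47 (FDR = 0.012) with siTAZ #1 and 0.29 (FDR = 0.042) with siTAZ #2. SSRP1, the HMG-box subunit of the FACT chaperone, had 0.08 (FDR = 0.52) and -0.15 (FDR = 0.20). SUPT16H, the other FACT subunit, had -0.26 (FDR = 0.11) with siTAZ #1 and fell with siTAZ #2 at -0.94 (FDR = 0.0020). It differed between the siRNAs by 0.68 (FDR = 0.0051, higher with siTAZ #1).

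Of 12 genes known to act with HMGA2 or HMGB1, 8 passed the filter on low counts and were tested. With siTAZ #1, 1 was higher and 2 were lower, and with siTAZ #2, 0 were higher and 3 lower. CXCL12, a chemokine that forms a complex with HMGB1, fell at -1.32 (FDR = 0.014) with siTAZ #1 and -2.24 (FDR = 0.0023) with siTAZ #2. THBD, the gene of thrombomodulin, which binds HMGB1, was at 1.70 and 3.11 CPM with siNTC, rose to 6.32 and 7.29 CPM with siTAZ #1 (FDR = 0.045) and fell to 0.42 and 0.70 CPM with siTAZ #2 (FDR = 0.020). IGF2BP2, an RNA-binding protein known as a target of HMGA2, fell with siTAZ #2 at -0.84 (FDR = 0.0049) and had -0.21 (FDR = 0.24) with siTAZ #1. Its relative IGF2BP1 fell with siTAZ #1 at -1.06 (FDR = 0.0018).

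The genes whose levels followed HMGN2 most closely were FST, TCEB3, RPL22L1, PSKH1 and HADHA. Likeness was the root mean square difference in log2 CPM, each gene set relative to its siNTC mean, over the 6 libraries and 9865 genes of at least 10 CPM. It was 0.13 for FST, the gene of the activin antagonist follistatin, 0.18 for TCEB3, an elongin subunit, 0.20 for RPL22L1, a ribosomal protein paralog, 0.21 for PSKH1, a kinase, and 0.22 for HADHA, an enzyme of fatty acid oxidation. FST was at 575 and 583 CPM with siNTC, 261 and 294 CPM with siTAZ #1, and 124 and 135 CPM with siTAZ #2, close to the levels of HMGN2. These genes were chosen for this pattern, so their values are a description.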

How the data were processed

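HFL-1 cells were sequenced in 6 libraries, 2 per siRNA, which were grouped by their labels and are called biological replicates there. The deposited values are raw, not normalized counts per gene. The authors aligned the Ion Proton reads with TMAP to hg19 and used HTSeq 0.6.1 for counting, with a strand setting and mode not given in the sources used here. Of 23368 entries, 13 bear a date instead of a symbol and were left out (0.0458% to 0.0506% of the counts). Libraries held 15648055 to 32078188 counts.

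Low counts were removed with filterByExpr, factors were set by TMM, and the 6 libraries were fitted together by edgeR 4.0.16 (quasi-likelihood test, R 4.3.3). FDRs are Benjamini-Hochberg values over 14053 genes, with a threshold of 0.05. The standard error is the size of the log2 fold change over the square root of F. With 2 libraries per group, p-values rest on a spread shared across groups and genes.

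Coding sequences were spliced from GRCh37 with GENCODE annotation, aligned with Biopython 1.88 and searched for copies with BLAST+ 2.17.0. CPM per kb used 1 annotated transcript per gene. RefSeq promoter windows (GRCh38.p14) were searched for motifs on both strands.

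The members, lists and tests were chosen with earlier results of these data known. The genes named are the 8 members, WWTR1, YAP1, MKI67, TOP2A, PCNA and CCNB1, up to 3 genes per list with the largest change among those called, and the 5 genes most like HMGN2. Some genes that this rule takes are not reported here. SSRP1, SUPT16H, NAP1L4, HMGB3, HMGN5, H1FX and H1F0 are outside this rule and were chosen after their values were seen. Alternatives were DESeq2 1.42.0, the exact test of edgeR and a quasi-likelihood fit, each on 4 libraries, scaling by RLE, by upper quartiles or by library totals, no filter, a mean count of at least 50, a replicate block, an FDR of 0.1, leaving out the RANGAP1-to-Y genes (nearly missing in 1 library), leaving out each library in turn, and sums with related pseudogenes.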

Additional observations from a re-analysis of the deposited data

Results flagged for a closer look

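HMGN2, HMGA1, HMGB1 and HMGB2 differed between the TAZ siRNAs in the direct edgeR test, although both siRNAs lowered WWTR1. The log2 difference of siTAZ #1 from siTAZ #2 was 1.12 for HMGN2, 0.82 for HMGA1, 0.64 for HMGB1 and 1.10 for HMGB2, each higher with siTAZ #1. HMGN2 was below siNTC with both siRNAs and farther below with siTAZ #2. HMGA1 was above siNTC with siTAZ #1 and overlapped it with siTAZ #2. HMGB1 was above siNTC in all 4 siTAZ libraries, and its difference between the siRNAs was lost in 6 of 23 alternatives. HMGB2 was below siNTC with siTAZ #2 alone, where 37 of 53 other G2M phase genes were also lower. WWTR1 was at 20.8% of its siNTC level with siTAZ #1 and at 33.9% with siTAZ #2. The part of the WWTR1 level and of the cell cycle genes in these differences was not tested.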

How the results depend on the processing

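Of 558 alternative values for the 8 genes in the 3 comparisons, 497 kept their direction and their side of the threshold, 23 lost a call, 27 gained one and 11 changed sign, none of these a called value. Called members numbered 5, 4 and 4 (siTAZ #1, siTAZ #2, and siTAZ #1 against siTAZ #2). The exact test on 4 libraries gave 3, 6 and 2. Leaving out 1 library gave 0 to 6, 2 to 6 and 3 to 6, with 0 (siTAZ #1) and 2 (siTAZ #2) without siNTC replicate 1 and 1 (siTAZ #1) without siNTC replicate 2. In fits that also left out the RANGAP1-to-Y genes, chosen after seeing the data, these ranges were 5 to 6, 4 to 6 and 4 to 6. A lone library is assumed to vary like the others.

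The value of HMGN1 between the siRNAs turned to -0.0287 by upper-quartile factors, -0.00180 by library totals, -0.00139 with the replicate block and -0.00961 without the RANGAP1-to-Y genes, and ranged from -0.211 to 0.205 on leaving out 1 library. It was -0.211 without siTAZ #1 replicate 2 and -0.0239 without siTAZ #2 replicate 2, and -0.213 and -0.0385 with the RANGAP1-to-Y genes also left out. That of HMGN3 with siTAZ #2 ranged from -0.168 to 0.0300 on leaving out 1 library, with 0.0300 without siTAZ #2 replicate 2, and was 0.0378 with the RANGAP1-to-Y genes also left out. That of HMGA1 with siTAZ #2 turned to 0.0215 by library totals. The cause was not tested.

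Over all genes, calls numbered 2889, 4004 and 4020. They ranged from 556 to 5100, 1328 to 6042 and 1797 to 5659 on leaving out 1 library, the exact test gave 1061, 6424 and 1498, and a fit of 4 libraries gave 6097 with siTAZ #2. The replicate block gave 5, 4 and 4 members, and 1691 genes with siTAZ #1. Deviations of same-numbered libraries had correlations of -0.0007, 0.01 and -0.08, so the numbers were not taken as pairs. Sums with pseudogenes were made for HMGN2 and HMGA1 only. No HMGN1 or HMGB1 pseudogene was among the entries used here. HMGN3 had the fewest counts of the 8, 300 to 1019 per library.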
